A study of Mus musculus with 12 samples.

Results

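The 9 genes described here were chosen as genes of dendritic cells: Flt3, Zbtb46, Batf3, Clec9a, Xcr1, Wdfy4, Ccr7, Siglech and Ccr9. They were taken by symbol from a table of 24421 gene symbols, and all 9 were among the 12981 genes with enough counts to be tested. The table holds messenger RNA counts from 12 mouse libraries of cells sorted out of injured tibialis anterior, a muscle of the lower leg, at day 5 after notexin, a snake venom toxin that kills muscle fibres. Sorted cells were alive by propidium iodide, positive for CD45 and CD11B and negative for LY6G and SIGLECF, and the labels call them macrophages. The groups crossed Ifngr1 genotype with antibody. Mice were wt/null or null/null for Ifngr1, the ligand-binding chain of the interferon gamma receptor, so every animal carried at least 1 null allele and no group was wild type on both alleles. Each genotype received daily intraperitoneal isotype control antibody or anti-TNF neutralizing antibody, with 3 libraries in each of the 4 groups. The labels do not say that each library came from a separate mouse, so the p-values measure the spread between these libraries. The study asked what TNF and interferon gamma do to muscle macrophages.

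Dendritic cells are the antigen-presenting cells that prime T cells. Conventional dendritic cells grow in response to FLT3 ligand through the receptor FLT3 and express the transcription factor ZBTB46, which most macrophages lack. One branch of them, the type 1 conventional dendritic cell (cDC1), depends on the transcription factor BATF3 and takes up dead cells to present their antigens, using CLEC9A to sense exposed actin and XCR1 to meet lymphocytes that release its ligand XCL1. Mature dendritic cells of any branch raise CCR7 and leave the tissue for the draining lymph node. Plasmacytoid dendritic cells make type I interferon and in the mouse carry the surface lectin SIGLEC-H and the gut-homing receptor CCR9. Both cDC1 and plasmacytoid cells carry little CD11B, the marker on which these cells were gated.

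Because most of the 9 genes were high in the same pair of libraries, the stretches before their start sites are shown, searched for motifs of the pathways manipulated here. RefSeq (GRCm38.p6) gave a start site for 8 of the 9, all but Ccr7, and each window runs from 250 bases before to 50 bases after it. Sequences below read 5' to 3' on the strand of the gene, and capitals mark a motif match. Shown are Flt3, as the receptor that defines the lineage, at chr5:147400440-147400739 on the minus strand, and 3 genes with a match to an interferon-type motif: Batf3 at chr1:191098164-191098463, Clec9a at chr6:129408612-129408911 and Siglech at chr7:55767934-55768233, all on the plus strand.
Flt3: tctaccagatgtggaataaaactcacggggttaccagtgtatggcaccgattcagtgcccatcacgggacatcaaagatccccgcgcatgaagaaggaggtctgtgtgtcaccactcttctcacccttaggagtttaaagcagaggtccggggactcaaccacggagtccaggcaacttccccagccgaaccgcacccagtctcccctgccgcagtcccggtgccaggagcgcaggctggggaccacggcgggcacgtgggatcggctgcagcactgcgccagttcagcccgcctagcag
Batf3: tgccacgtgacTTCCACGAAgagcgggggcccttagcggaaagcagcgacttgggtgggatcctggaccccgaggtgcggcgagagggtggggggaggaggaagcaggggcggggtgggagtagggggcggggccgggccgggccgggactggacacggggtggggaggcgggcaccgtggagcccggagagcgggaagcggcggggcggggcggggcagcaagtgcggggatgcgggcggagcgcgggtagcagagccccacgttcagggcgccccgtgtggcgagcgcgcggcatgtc
Clec9a: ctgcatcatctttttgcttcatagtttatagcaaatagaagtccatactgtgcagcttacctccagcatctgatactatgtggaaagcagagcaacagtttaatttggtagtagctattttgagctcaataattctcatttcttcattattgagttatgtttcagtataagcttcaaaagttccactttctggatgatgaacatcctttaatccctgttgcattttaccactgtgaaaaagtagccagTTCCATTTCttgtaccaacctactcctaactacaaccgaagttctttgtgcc
Siglech: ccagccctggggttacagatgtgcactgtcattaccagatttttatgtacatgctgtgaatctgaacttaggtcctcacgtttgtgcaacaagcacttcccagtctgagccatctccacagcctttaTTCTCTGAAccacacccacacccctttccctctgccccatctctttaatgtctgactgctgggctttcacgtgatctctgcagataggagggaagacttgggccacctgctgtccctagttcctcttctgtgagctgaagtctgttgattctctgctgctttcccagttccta
Batf3 held the GAS letters TTCNNNGAA with the first base at -239 from the start site, and Siglech held them at -123. Clec9a held the interferon response core GAAANNGAA on its minus strand at -2, printed above as its reverse complement. In Zbtb46 the AP-1/BATF letters TGANTCA lay at -61, but its start site lies 68.9 kb inside the gene span given below, also from RefSeq. That of Wdfy4 lies 8.79 kb inside its gene, so for both the window is that of an inner start site. No match to these 3 motifs, to the kappaB letters GGNNTTTCC or to the ETS-IRF letters GGAANNGAA, searched on both strands, was in the windows of Flt3, Xcr1, Wdfy4 or Ccr9, and no window of the 8 held the kappaB or ETS-IRF letters. Among 27025 RefSeq promoter windows of the same length, 8.47% held the GAS letters, 8.57% the interferon response core, 7.93% the AP-1/BATF letters, 5.72% the kappaB letters and 8.25% the ETS-IRF letters. GAAANNGAA and GGAANNGAA can overlap at the same bases. A match describes letters and not a bound site.

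Before the values, 3 features of the libraries need stating. Depth was even, at 23.2 to 29.9 M counts per library (M, mega). On the first principal component of log2 CPM over all tested genes, which held 34.4% of the variance, wt/null anti-TNF replicate 2 (54.24) and null/null anti-TNF replicate 1 (45.87) stood apart from the other 10 libraries (-20.84 to -3.47). Both are anti-TNF libraries, and the antibody and genotype estimates are given with and without them. The second component, with 14.7% of the variance, went with a number that opens the sample titles, 40 or 46, whose meaning the labels do not give: the 4 libraries titled 46, 1 in each group, ran from -23.57 to -10.68 and the 8 titled 40 from -5.92 to 20.01. A letter follows the number, also with no stated meaning. It is C in all 4 libraries titled 46 and in 4 of those titled 40, 1 in each group, and the pair that stands apart is the anti-TNF part of this latter set. The other 4 titled 40 carry A (both anti-TNF) or B (both isotype), so there letter and antibody cannot be told apart. Ifngr1, the targeted gene, checked the genotype labels. It was at 232 ± 6.92 and 242 ± 13.6 CPM (counts per M counts after TMM scaling; mean ± SD, n = 3) in wt/null mice on isotype and anti-TNF antibody, and at 88.7 ± 1.33 and 96.4 ± 19.4 CPM in null/null mice. The difference averaged over antibody was -1.36 on the log2 scale (edgeR quasi-likelihood test, Benjamini-Hochberg adjusted p = 1.43e-05). Tnf, whose protein the antibody binds, was at 23.7 ± 3.56 and 53.5 ± 44.8 CPM in wt/null mice on isotype and anti-TNF antibody and at 29.6 ± 5.21 and 36 ± 9.5 CPM in null/null mice, and did not pass the test. Without the pair its anti-TNF groups were at 27.7 ± 5.08 and 32.9 ± 11.1 CPM (n = 2 each).

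The dendritic cell genes were measurable in every library, at levels that differed widely between genes. Scaled to exon length, as mean CPM per kilobase of GENCODE exons over the 12 libraries, the order was Wdfy4 (16.7), Ccr7 (16.5), Batf3 (10.8), Flt3 (5.97), Siglech (1.66), Clec9a (1.28), Xcr1 (0.498), Zbtb46 (0.387) and Ccr9 (0.122). Wdfy4 and Ccr7 are not separated in that order, since the libraries of Ccr7 ran from 7.55 to 39.6 and those of Wdfy4 from 14.8 to 18.9 CPM per kilobase. The lowest gene, Ccr9, rested on 7 to 28 counts in 10 libraries, and Xcr1 on 11 to 131. A set of 10 macrophage marker genes summed to 30391 to 38953 CPM in all 12 libraries, so the labelled cell type was borne out by its markers. In a bulk sample, fewer dendritic cells and less of a transcript per cell cannot be told apart.

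No gene of the 9 passed the test for antibody or for genotype. In the antibody effect averaged over genotype, edgeR called 0 of the 9 at an adjusted p below 0.05 and 0% of all 12981 genes, while 4 of the 9 (Flt3, Batf3, Clec9a and Ccr9) and 949 of all genes (7.31%) had an unadjusted p below 0.05. DESeq2 called 14 genes and limma voom 0 in that comparison, none of them among the 9. For genotype averaged over antibody, 0 of the 9 were called against 0.0077% of all genes, that 1 gene being Ifngr1, and 0 of the 9 had an unadjusted p below 0.05. Antibody within wt/null, antibody within null/null and the interaction each called 0 of the 9 and 0% of all genes. Unadjusted p-values below 0.05 were reached there by 581, 452 and 196 genes, and by 0 of the 9 in each. Genotype under isotype and genotype under anti-TNF each called 0 of the 9 and 0.0077% of all genes, again Ifngr1.

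All 9 estimates of the averaged antibody effect lay above 0, with a median of 0.85 on the log2 scale against 0.01 over all tested genes. Ccr9 had the highest estimate at 1.72 ± 0.73 (SE), followed by Clec9a at 1.38 ± 0.55 and Flt3 at 1.03 ± 0.36, and Wdfy4 the lowest at 0.03 ± 0.08. Adjusted p-values (edgeR) ran from 0.66 to 0.918. Without the 2 libraries that stand apart, the estimates were 0.04 ± 0.41 for Ccr9, 0.64 ± 0.48 for Clec9a and 0.31 ± 0.10 for Flt3, and the adjusted p was 0.9996 for each of the 9. The median of the 9 was then 0.17, with 7 above 0.

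The antibody difference was also read within the sets of titles, a comparison chosen after the values were seen, with 2 isotype and 2 anti-TNF libraries in each. In the set titled 40 with the letter C, which holds the pair, all 9 genes were higher without overlap in the anti-TNF libraries, against 26.5% of all tested genes. Among libraries titled 46, Flt3, Clec9a and Xcr1 were, against 12.2%, and among those titled 40 with A or B, Flt3, Batf3, Siglech and Ccr9 were, against 18.4%. Flt3 alone of the 9 was higher without overlap in all 3 sets, as were 0.84% of all tested genes. Its isotype and anti-TNF levels were 27.1 and 23.4 against 87.3 and 89.3 CPM in the set that holds the pair, 23.3 and 27.9 against 32.1 and 31.5 CPM in libraries titled 46, and 20.4 and 23.2 against 32 and 24.9 CPM in the set with A or B. With number and letter as a block, fitted to all 12 libraries, the estimate for Flt3 was 1.07 ± 0.30 on the log2 scale (edgeR, adjusted p = 0.486), and 0 of the 9 were called. Because letter and antibody coincide in the set with A or B, that set does not inform this antibody estimate. It rests on the set that holds the pair and on the libraries titled 46, so the pair weighs more in it.

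**Figure D1:**
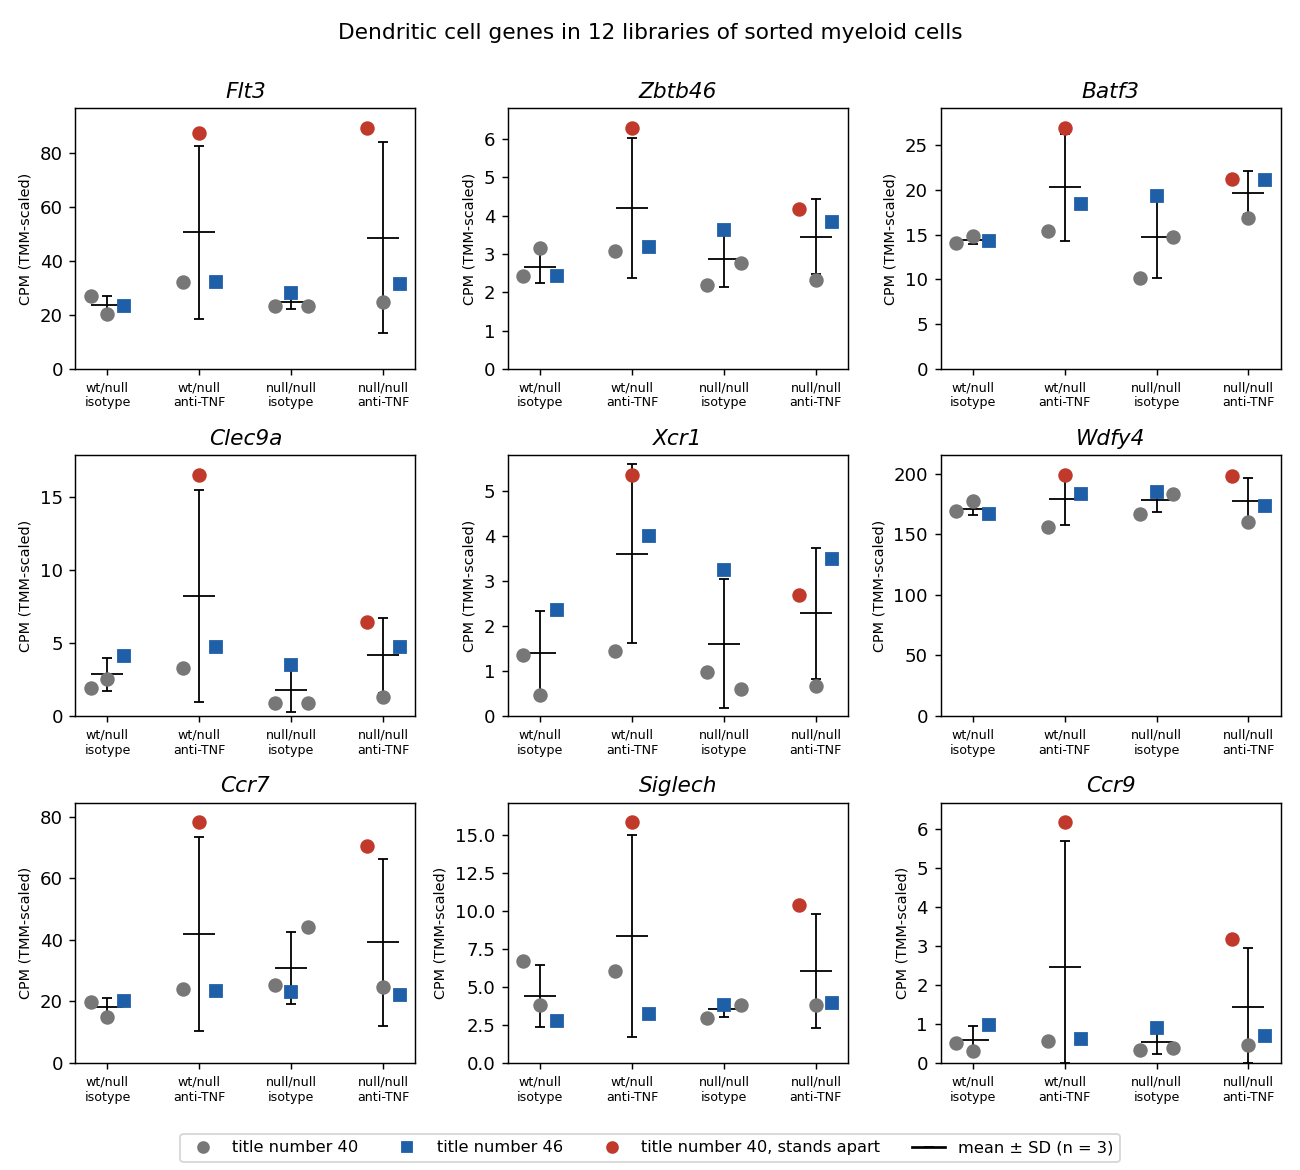
Level of each of the 9 genes in every library (vertical axis, TMM-scaled CPM from 0) by group (horizontal axis); red circles are the pair of libraries that stand apart, blue squares libraries titled 46, grey circles the others, and black bars the mean ± SD of 3 libraries, ending at 0 where the SD exceeds the mean. The red circles are the top pair in 8 of the 9 panels, all but Xcr1, and Wdfy4 stays between 156 and 199 CPM throughout.

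Flt3 is the receptor tyrosine kinase for the growth factor of the lineage (minus strand, chr5:147330741-147400489). In wt/null mice it was at 27.1, 20.4 and 23.3 CPM on isotype antibody and at 32, 87.3 and 32.1 CPM on anti-TNF antibody. In null/null mice it was at 23.2, 27.9 and 23.4 CPM on isotype and at 89.3, 24.9 and 31.5 CPM on anti-TNF antibody. The groups did not overlap in wt/null mice and overlapped in null/null mice, and the high values of 87.3 and 89.3 CPM belonged to the pair that stands apart. Without that pair, the group means were 23.6 ± 3.36 (n = 3) against 32 ± 0.0743 CPM (n = 2) in wt/null and 24.8 ± 2.67 (n = 3) against 28.2 ± 4.65 CPM (n = 2) in null/null mice. The genotype estimate for Flt3, averaged over antibody, was 0.01 ± 0.35 on the log2 scale, and -0.06 ± 0.10 without the pair. Flt3l, which encodes the ligand, was at 12.6 and 7.88 CPM in the pair and at 6.38 to 8.74 CPM in the other 10 libraries.

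The transcription factors were also highest in the same pair of libraries, by smaller steps. For Batf3 the lower of the pair was at 21.2 CPM, against 21.1 CPM in null/null anti-TNF replicate 3. Zbtb46 (minus strand, chr2:181371009-181493262), a zinc finger repressor of the conventional lineage, was at 2.42, 3.16 and 2.42 CPM in wt/null isotype and at 3.09, 6.3 and 3.18 CPM in wt/null anti-TNF libraries. In null/null mice it was at 2.2, 3.62 and 2.77 CPM on isotype and at 4.17, 2.33 and 3.83 CPM on anti-TNF antibody. Isotype and anti-TNF values overlapped in both genotypes. Batf3 (plus strand, chr1:191098414-191108943), which keeps the cDC1 programme running, was at 14.1, 14.9 and 14.3 CPM in wt/null isotype and at 15.4, 27 and 18.5 CPM in wt/null anti-TNF libraries. The corresponding null/null values of Batf3 were 10.2, 19.4 and 14.7 CPM and 21.2, 16.9 and 21.1 CPM. Batf3 did not overlap between antibodies in wt/null mice, and did in null/null mice. Averaged antibody estimates were 0.46 ± 0.23 for Zbtb46 and 0.45 ± 0.16 for Batf3 on the log2 scale, and 0.17 ± 0.20 and 0.30 ± 0.15 without the pair. Genotype estimates were -0.09 ± 0.23 and -0.00 ± 0.16, and 0.04 ± 0.20 and 0.10 ± 0.15 without the pair. The span of Zbtb46 contains Zgpat (19.8 to 24.1 CPM) and Lime1 (11.5 to 16.1 CPM), both well above it and given for their position, and the strand setting of the counting is not given in the sources used here.

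Clec9a and Xcr1, the surface receptors of cDC1, varied within the groups, in part with the number in the sample titles. Clec9a (plus strand, chr6:129408862-129424764) was at 1.91, 2.52 and 4.09 CPM in wt/null isotype and at 3.31, 16.5 and 4.74 CPM in wt/null anti-TNF libraries. In null/null mice it was at 0.854, 3.51 and 0.899 CPM on isotype and at 6.4, 1.32 and 4.71 CPM on anti-TNF antibody. All groups overlapped, and within each group except those that hold a library standing apart, the highest value was that of the library titled 46. Xcr1 (minus strand, chr9:123852315-123862029) was at 1.35, 0.47 and 2.35 CPM in wt/null isotype and at 1.45, 5.36 and 4 CPM in wt/null anti-TNF libraries. On isotype and anti-TNF antibody, null/null mice had Xcr1 at 0.976, 3.24 and 0.588 CPM and at 2.69, 0.661 and 3.49 CPM. Its groups overlapped too, and null/null anti-TNF replicate 1, one of the pair standing apart, was below the library titled 46 of its own group. Genotype estimates averaged over antibody were -0.84 ± 0.55 for Clec9a and -0.24 ± 0.56 for Xcr1 on the log2 scale, with adjusted p = 0.9996 for both (edgeR), and -0.56 ± 0.48 and -0.11 ± 0.66 without the pair. The antibody estimate of Xcr1 was 0.93 ± 0.56, and 0.66 ± 0.65 without the pair.

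The title number was compared after these values had been seen. Leaving aside the pair that stands apart, the 4 libraries titled 46 lay above all 6 titled 40 for Clec9a (3.51 to 4.74 against 0.854 to 3.31 CPM), Xcr1 (2.35 to 4 against 0.47 to 1.45 CPM) and Ccr9 (0.621 to 0.97 against 0.299 to 0.558 CPM). That is 3 of the 9, against 1.93% of all tested genes. All 4 titled 46 carry the letter C, while most of these 6 carry A or B. Number and letter therefore cannot be fully told apart in the comparisons by title number. For Ccr9 the separation rested on 16 counts in wt/null anti-TNF replicate 3 against 15 in replicate 1. With all 12 libraries, a title number term in the edgeR model gave 1.18 ± 0.46 for Xcr1 (adjusted p = 0.44) and 0.55 ± 0.60 for Clec9a (adjusted p = 0.798) on the log2 scale, and called 0 of the 9 and 0.0154% of all genes. In that model 1 of the 9, Xcr1, had an unadjusted p below 0.05, as did 1276 of all genes, and DESeq2 and limma voom also called 0 of the 9. Fitted without the pair, it gave 1.78 ± 0.29 for Xcr1 (adjusted p = 0.0212) and 1.28 ± 0.24 for Clec9a (adjusted p = 0.0376), calling 2 of the 9 and 0.628% of all genes. Ccr9 was at 0.89 ± 0.32 there (adjusted p = 0.241) and Batf3 at 0.31 ± 0.13 (adjusted p = 0.303), and neither was called. Xcr1 and Clec9a were the only members called, and the sign of Ccr9 turned: it was -0.25 ± 0.90 with all 12 libraries. Other members lay below 0 with all 12, among them Siglech at -0.82 ± 0.40 (adjusted p = 0.531), Ccr7 at -0.63 ± 0.41 and Flt3 at -0.36 ± 0.39, and 4 of the 9 did in all. Without the pair, Siglech was at -0.40 ± 0.24, Ccr7 at -0.15 ± 0.18 and Flt3 at 0.14 ± 0.10. Markers of other cells went with the number too. Osteoclast-type markers had the highest median estimate of the marker lists, 1.47 with all 12 libraries and 7 of 7 above 0, and summed to 1729 to 3958 CPM in libraries titled 46 and to 1134 to 2594 CPM in the 6 titled 40, which overlapped. The 2 tested mast cell and basophil genes had a median of 1.46. Summed muscle markers also went with the number, at 93.9 to 115 CPM in libraries titled 46 and 55.7 to 81 CPM in the 6 titled 40, with 4 of 6 genes above. Summed T cell markers were higher too, at 135 to 202 against 97 to 127 CPM. Most of that sum was Cd4, at 130 to 195 against 92.3 to 124 CPM, the 1 of 6 tested genes that lay above. The median T cell estimate was -0.08 with all 12 libraries. The part of these markers in the result was not tested.

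As a ratio, per 100 CPM of Flt3, Xcr1 was at 10.1 to 12.5 in the 4 libraries titled 46 and at 2.3 to 6.14 in all 8 titled 40. The pair that stands apart, with Xcr1 at 6.14 and 3.01 per 100 Flt3, lay with the other libraries titled 40 by this ratio. Clec9a per 100 Flt3 was at 12.6 to 17.5 in libraries titled 46 and at 3.68 to 18.9 in those titled 40, which overlapped. Siglech, a gene of another branch, overlapped as well, with 10 to 13.7 per 100 Flt3 against 11.7 to 24.7. These ratios were chosen after the values were seen and carry no test.

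**Figure D2:**
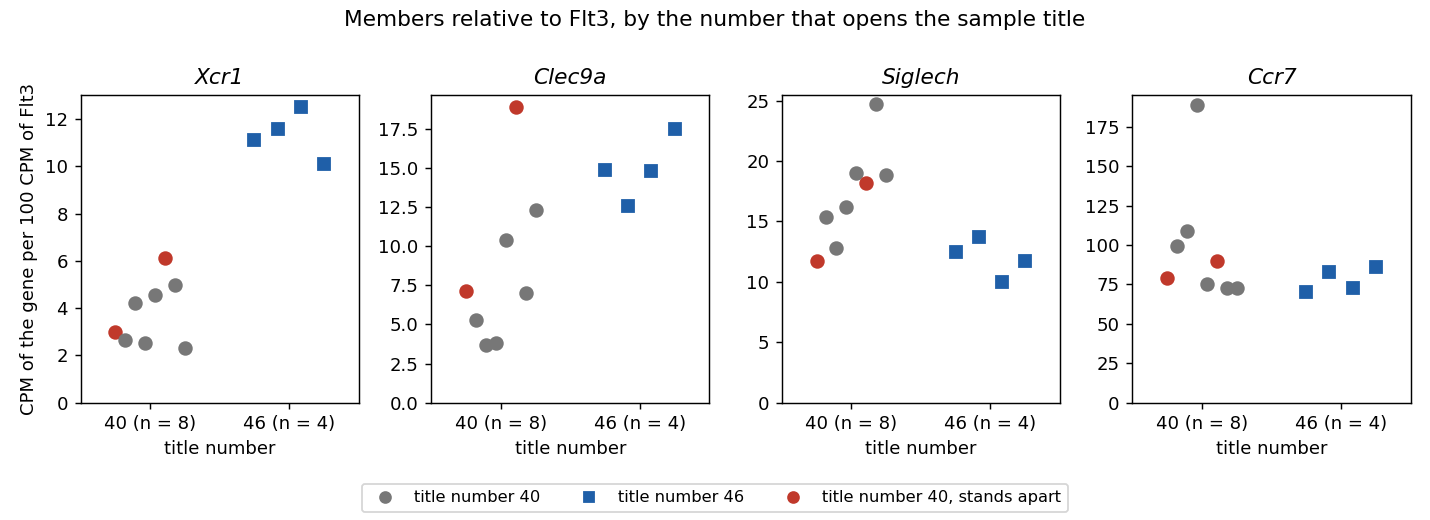
CPM of Xcr1, Clec9a, Siglech and Ccr7 per 100 CPM of Flt3 (vertical axes, linear from 0) in the 8 libraries titled 40 and the 4 titled 46 (horizontal axis); each point is a library, and red circles are the pair that stands apart. The Xcr1 points of the libraries titled 46 (10.1 to 12.5) lie above all those titled 40 (2.3 to 6.14), whereas the points of the other 3 genes overlap.

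Other genes of cDC1, from a list of 16 tested genes, were read the same way. Libraries titled 46 lay above the 6 titled 40 for 5 of the 16: Itgae, Gcsam, Snx22, Sept3 and Tlr11, named after their values were seen, against 1.93% of all tested genes. Over the whole list, with all 12 libraries, 9 estimates lay above 0 and 7 below, with a median of 0.05. Itgae, the CD103 integrin of tissue cDC1, was at 3.53 to 6.87 against 1.07 to 3.25 CPM. Snx22 was at 2.77 to 4.85 against 0.513 to 1.53 CPM, and Gcsam at 1.14 to 2.05 against 0.117 to 0.636 CPM. Cd36, a scavenger receptor that macrophages also carry, went the other way, at 272 to 319 against 346 to 468 CPM.

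Wdfy4, which cDC1 need to cross-present the antigens of dead cells, was the flat member (minus strand, chr14:32959547-33193855). It was at 169, 177 and 167 CPM in wt/null isotype and at 156, 199 and 183 CPM in wt/null anti-TNF libraries. The null/null values were 167, 185 and 183 CPM on isotype and 198, 160 and 173 CPM on anti-TNF antibody. Groups overlapped in both genotypes, and although 199 and 198 CPM again came from the pair that stands apart, they were close to the rest. The averaged antibody estimate of 0.03 had a 95% interval of -0.14 to 0.19 on the log2 scale, and the genotype estimate of 0.02 one of -0.14 to 0.18. Without the pair these estimates were -0.06 ± 0.07 and 0.02 ± 0.07. Of the 9, Wdfy4 had the narrowest interval in both comparisons. Its Pearson r of log2 CPM was 0.557 with Clec9a and 0.685 with Flt3 over 12 libraries. Over the 10 without the pair it was 0.119 and -0.075. Whether Wdfy4 RNA came from dendritic cells in these libraries was not tested.

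Ccr7, the receptor for the lymph node chemokines CCL19 and CCL21, was high in the pair and in 1 further library (minus strand, chr11:99144199-99155077). In wt/null mice it was at 19.7, 14.9 and 20.1 CPM on isotype and at 24.1, 78.3 and 23.4 CPM on anti-TNF antibody. In null/null mice it was at 25.2, 23.1 and 44.3 CPM on isotype and at 70.5, 24.8 and 22.1 CPM on anti-TNF antibody. Ccr7 was higher without overlap in wt/null anti-TNF than in wt/null isotype libraries, and higher without overlap in null/null than in wt/null libraries under isotype. The 44.3 CPM of null/null isotype replicate 3 was the highest Ccr7 level outside the pair, and that library was not high in Flt3 (23.4 CPM). The averaged antibody estimate was 0.77 ± 0.40 on the log2 scale with all libraries and -0.01 ± 0.18 without the pair, so its sign turned. The genotype estimate was 0.33 ± 0.40, and 0.37 ± 0.18 without the pair. Of its ligands, named after their values were seen, Ccl19 was at 0 to 0.285 CPM in all 12 libraries and Ccl21a at 0.

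Groups that do not overlap were common among all genes, which sets the scale for these observations. Between antibodies in wt/null mice, 3 of the 9 (Flt3, Batf3 and Ccr7) did not overlap, against 10.2% of all tested genes. In null/null mice it was Siglech alone, against 8.41%. Under isotype, genotype separated Ccr7 alone, against 7.96%, and under anti-TNF antibody none of the 9, against 5.15%.

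Siglech and Ccr9 were taken as plasmacytoid genes, but without the pair they did not go together. Their Pearson r of log2 CPM was 0.798 over 12 libraries and -0.105 over the 10 without the pair. Over those 10, Ccr9 correlated with Xcr1 (0.828) and Clec9a (0.726), with Ccr9 below 1 CPM in each library. Each of these genes was higher there in the libraries titled 46, and the part of the title number in these correlations was not tested. Siglech (plus strand, chr7:55768154-55779448) was at 6.71, 3.85 and 2.74 CPM in wt/null isotype and at 6.07, 15.9 and 3.22 CPM in wt/null anti-TNF libraries. In null/null mice it was at 2.97, 3.82 and 3.8 CPM on isotype and at 10.4, 3.85 and 3.95 CPM on anti-TNF antibody. The absence of overlap in null/null mice thus rested on 3.85 against 3.82 CPM, and wt/null groups overlapped. Ccr9 (plus strand, chr9:123767211-123783457) was at 0.516, 0.299 and 0.97 CPM in wt/null isotype and at 0.558, 6.18 and 0.621 CPM in wt/null anti-TNF libraries. For null/null mice, Ccr9 values were 0.325, 0.887 and 0.38 CPM on isotype and 3.18, 0.467 and 0.683 CPM on anti-TNF antibody. Only the pair that stands apart exceeded 1 CPM, with 151 and 84 counts, and both genotypes overlapped between antibodies. The antibody estimate of Siglech was 0.85 ± 0.41 on the log2 scale with all libraries and 0.11 ± 0.25 without the pair, beside 1.72 ± 0.73 and 0.04 ± 0.41 for Ccr9. Genotype estimates were -0.39 ± 0.41 for Siglech and -0.47 ± 0.73 for Ccr9, and -0.29 ± 0.25 and -0.11 ± 0.41 without the pair.

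Ccr9 and Xcr1 lie near each other on chromosome 9, with 68.9 kb between them. Cxcr6, a chemokine receptor of lymphocytes that lies between them, was at 1.51 and 0.644 CPM in the pair and at 0.0346 to 0.417 CPM in the other 10 libraries. Fyco1, also between them and an adaptor for vesicle transport, was at 26.2 to 42.1 CPM over the 12 libraries. Both genes are given for their position, with their values known.

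**Figure D3:**
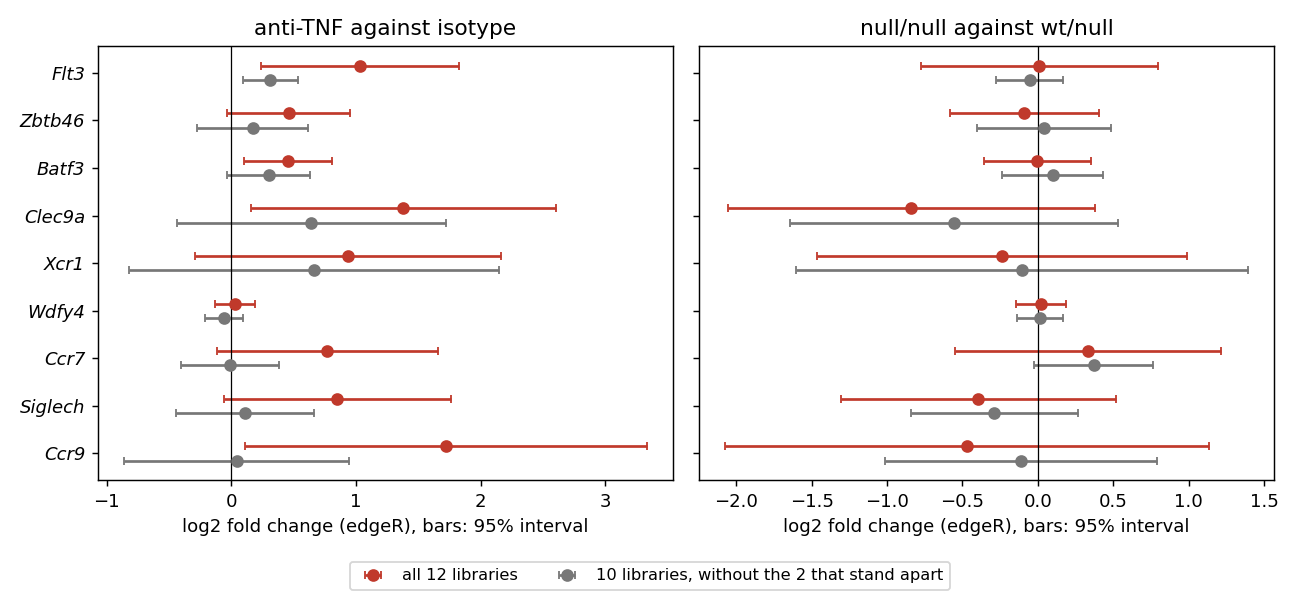
Estimated log2 fold change of each gene (points) with its 95% interval (bars) for anti-TNF against isotype antibody (left) and null/null against wt/null (right), each averaged over the other factor, with all 12 libraries (red) and with 10 (grey). Leaving out the pair moves Ccr7 from 0.77 to -0.01 and Ccr9 from 1.72 to 0.04 on the left, while Flt3 stays above 0 at 0.31.

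In the pair of libraries, 8 of the 9 genes had their highest and second highest level, against 11.7% of all tested genes, and 12.5% of all tested genes had their lowest. For Batf3 this rested on 21.2 against 21.1 CPM. Markers of other cells moved in the pair too. Monocyte markers summed to 1069 and 1053 CPM against 421 to 714 in the other 10 libraries, with 4 of 6 highest in the pair. NK cell markers summed to 18.2 and 11.6 CPM against 3.38 to 6.37, with 3 of 4 highest. Neutrophil markers summed to 203 and 216 CPM against 118 to 159, with 3 of 5 highest (Retnlg, Csf3r and Mmp8). Most of that sum was Csf3r, at 196 and 200 against 111 to 152 CPM. S100a8, at 0.532 and 1.48 against 0.463 to 10.7 CPM, was not raised. Nor was Ltf, at 0.0409 and 0.0758 against 0.0428 to 7.24 CPM. T cell markers summed to 166 and 122 CPM within the range of the others (97 to 202), although 4 of 6 were highest in the pair. Cd4 made up most of this T cell sum, at 145 and 110 within 92.3 to 195 CPM, so the sum says little about the other genes. The 4 highest in the pair were Cd3g, Cd8a, Cd8b1 and Lck, with Cd8b1 at 3.85 and 2.77 against 0.0855 to 0.694 CPM. Cd5, at 2.37 and 1.89 within 1.75 to 3.7 CPM, was not raised. Osteoclast-type markers summed to 524 and 621 CPM against 1134 to 3958, with 5 of 7 lowest. Fibroblast markers summed to 287 and 183 CPM against 425 to 1119, endothelial markers to 50.9 and 45.3 against 19.5 to 39.2, and B cell markers to 158 and 136 against 113 to 161. The part of these markers in the dendritic cell results was not tested.

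Beyond the 9, the wider dendritic cell lists gave 0 calls in either direction for antibody and for genotype. For antibody averaged over genotype, the median log2 fold change was 0.61 over 16 other genes of conventional cells, with 15 estimates above 0, against 0.01 over all tested genes. It was 0.31 over 16 other cDC1 genes (12 above 0), 0.32 over 19 genes of type 2 conventional and monocyte-derived cells (17 above 0), 0.31 over 23 genes of mature cells (18 above 0) and 0.34 over 23 other plasmacytoid genes (18 above 0). For 20 dendritic cell transcription factors it was 0.22, with 18 above 0. Without the pair these medians were 0.21 for conventional cells (15 of 16 above 0), 0.17 for cDC1, 0.13 for type 2 and monocyte-derived cells, -0.05 for mature cells (8 of 23 above 0), -0.01 for plasmacytoid cells (10 of 22) and 0.03 for transcription factors, against 0.00 over all tested genes, again with 0 calls. Of 6 ligand genes for the member receptors 3 were tested, with a median of 0.27 for antibody and -0.23 for genotype. For genotype the medians of the other lists lay between -0.14 for the plasmacytoid genes and 0.04 for the mature genes, and that over all tested genes at 0.

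The lists differed in how many members were highest in the pair that stands apart: 11 of 16 for conventional cells, 16 of 23 for mature cells, 13 of 20 for transcription factors, 11 of 23 for plasmacytoid cells, 9 of 19 for type 2 and monocyte-derived cells and 5 of 16 for other cDC1 genes, against 11.7% of all tested genes. The lists share genes, so these counts are not separate: Irf8, for example, counts under both cDC1 and transcription factors. Cd8a and Ly6c2, counted under plasmacytoid cells, are also among the T cell and monocyte markers. Of the 2 most abundant conventional genes, Ciita, the master switch of MHC class II, was at 324 and 219 CPM in the pair against 108 to 206 in the other libraries. Itgax, which encodes CD11c and is also carried by macrophages, was lowest there, at 695 and 800 CPM against 808 to 1303. Irf8, a transcription factor of cDC1 and monocytes, was at 656 and 485 against 291 to 449 CPM. Irf7, which drives interferon production in plasmacytoid cells and is interferon-induced elsewhere, was at 860 and 524 against 159 to 440 CPM. Spi1, which encodes the myeloid factor PU.1, was at 521 and 456 within 445 to 548 CPM.

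Among the abundant genes of the remaining lists, Sirpa, carried by type 2 cells and macrophages, was at 1949 and 1770 CPM in the pair and 2087 to 2525 in the others. Cd83, an activation marker, was at 767 and 503 against 356 to 700 CPM, and Cd63, a lysosomal membrane protein, at 700 and 895 against 890 to 1048 CPM. Fcgr2b, an inhibitory antibody receptor of type 2 cells and macrophages, was at 644 and 871 against 517 to 705 CPM. Ccl25, the ligand of CCR9, was at 0.737 and 0.492 against 0.707 to 1.79 CPM. Pltp, a lipid transfer protein, was at 2418 and 2205 CPM within 1676 to 2603.

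Further genes of these lists were chosen after their values were seen, and the cells their RNA came from were not tested. Other list genes were not raised in the pair. Among these, Cd24a was at 22.7 and 20.2 within 14.8 to 26 CPM, and Cd86 at 150 and 115 within 114 to 154 CPM. Dpp4, the CD26 of conventional cells, was at 63.2 and 58.5 CPM against 11.3 to 20.1 in the other 10 libraries, and Kit at 21.2 and 14.2 against 3.21 to 7.88 CPM. Fscn1, the actin-bundling protein of mature dendritic cells, was at 105 and 109 against 28.5 to 54 CPM. Cacnb3, another gene of mature cells, was at 40.4 and 38.1 against 7.97 to 13.8 CPM. Tcf4, the main transcription factor of plasmacytoid cells, was at 80.9 and 90.1 CPM within 68.8 to 93.2. Xcl1, the ligand of XCR1 released by lymphocytes, was at 4.18 and 1.7 CPM against 0 to 0.437.

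**Figure D4:**
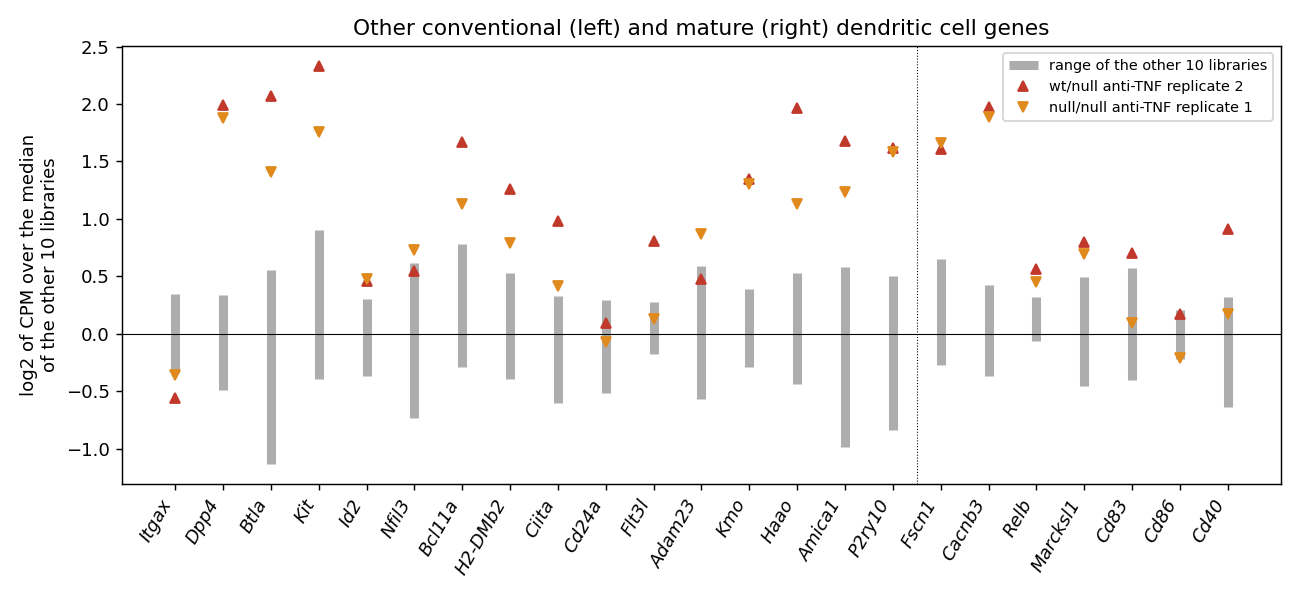
Levels of 16 other conventional dendritic cell genes and 7 genes of mature dendritic cells in the pair of libraries that stands apart (triangles), as log2 of CPM over the median of the other 10 libraries (vertical axis), with grey bars for the range of those 10; the 7 on the right were chosen after their values were seen. Both triangles lie above the grey bar for Dpp4, Kit, Btla, Fscn1 and Cacnb3 and below it for Itgax.

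The genes most like the members were found by Pearson correlation of log2 CPM over libraries, as a description across libraries that share their preparation and sort. Over all 12 libraries the nearest to Flt3 was Dpp4 (r = 0.988), followed by St3gal4 (0.978), Parp8 (0.970) and Zkscan6 (0.966). Over the 10 libraries without the pair, Med30 (0.930), Trim39 (0.905), Dpp4 (0.877) and BC028528 (0.871) came first, so 1 gene, Dpp4, was in both sets. For Ccr7 the nearest were Plcl2 (0.954), Fscn1 (0.950), D930015E06Rik (0.936) and Tnfsf9 (0.927) over 12 libraries, and Fbxw9 (0.891), Plcd1 (0.876), Pmvk (0.863) and Marveld1 (0.862) over 10.

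For Zbtb46 the nearest over 12 libraries were Grap2 (0.942), Ctnnd2 (0.931), Mppe1 (0.924) and Fgd2 (0.923), and over 10 libraries Brd9 (0.933), Alyref2 (0.930), Ctnnd2 (0.905) and Tnfrsf14 (0.872). For Siglech they were Mbd2 (0.956), 1700025G04Rik (0.945), Mycbp2 (0.944) and Snx5 (0.944) over 12, and 1700025G04Rik (0.945), Ssbp2 (0.943), Prr5l (0.932) and Evi2a (0.919) over 10. Among the members themselves, over 12 libraries, Flt3 went most closely with Ccr9 (r = 0.929) and Siglech (0.875), and over the 10 with Xcr1 (0.739). Flt3 and Ccr7 correlated at 0.850 over 12 libraries and at 0.087 over 10.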

How the data were processed

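Messenger RNA of 12 libraries was deposited by the authors as raw counts per gene symbol. Per the submitters' processing notes, bcl2fastq 2.20, STAR, Bowtie and the build mm10 were used; their roles, the counting tool, its strand setting and its annotation are not given in the sources used here. The 12 columns were matched to samples by title. Genes passing filterByExpr (12981, with at least 99.97% of each library's counts) were scaled by TMM and fitted in edgeR 4.0.16 (R 4.3.3) with robust quasi-likelihood models of the 4 groups on all 12 libraries; tests were two-sided and adjusted over all tested genes. Alternatives used DESeq2 1.42.0, limma 3.58.1 voom with weights, relative log expression scaling, other filters, the title number, or number and letter, as a block, subsets of libraries and each library left out. Calls needed an adjusted p below 0.05; log2 CPM used a prior count of 2. Positions are on GRCm38, the same build as mm10. Replicates were numbered in listing order and pair nothing. The test was checked on simulated data. Members and gene lists were chosen with earlier results of these data known. Named genes were the 9, list members called or else the 2 with the highest mean level per list, and the 4 most correlated genes (mean log2 CPM of at least 2) for Flt3, Zbtb46, Ccr7 and Siglech; genes outside this rule (other list members, ligands, genes that overlap or neighbour a member) were added with their values known.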

Additional observations from a re-analysis of the deposited data

How the results depend on the processing

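Over all alternatives run, 0 of the 9 genes were called in any of the 7 comparisons of antibody and genotype. Against 0 genes called for averaged antibody, DESeq2 called 14, and libraries titled 40 alone, like the title block without the pair that stands apart, called 1. DESeq2 called 4 genes for averaged genotype, and 2 under isotype and under anti-TNF, where libraries titled 40 alone gave 0; edgeR called 1. For the title number, edgeR called 2 genes, DESeq2 150, voom 110 and the fit without the pair 82, with 2 of the 9 (Xcr1 and Clec9a). Leaving out 1 library gave 0 to 86 genes, 86 without null/null isotype replicate 2 and 0 without wt/null isotype replicate 3 or wt/null anti-TNF replicate 3, and 0 of the 9 each time. Among the alternative log2 fold changes, 54 changed sign, 2 became called and 502 did neither. The cause was not tested.

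For averaged antibody, without the pair, Ccr7 was at -0.01 and Wdfy4 at -0.06; with the title block as well Ccr9 was at -0.03 and Wdfy4 at -0.07, voom gave Wdfy4 -0.03, and leaving out 1 library gave Wdfy4 -0.02 to 0.07. For averaged genotype, voom gave Batf3 0.11, Flt3 -0.05 and Zbtb46 0.01; dropping the pair gave 0.10, -0.06 and 0.04, adding the title block 0.08, -0.06 and 0.02, and libraries titled 40 alone put Flt3 at -0.05. Leaving out 1 library, genotype ranged over -0.13 to 0.13 for Batf3, -0.04 to 0.74 for Ccr7, -1.13 to 0.55 for Ccr9, -0.38 to 0.34 for Flt3, -0.71 to 0.03 for Siglech, -0.03 to 0.06 for Wdfy4, -0.75 to 0.07 for Xcr1 and -0.19 to 0.12 for Zbtb46. For the title number, Ccr9 was at 0.33 by voom and 0.89 without the pair, where Flt3 was at 0.14; leaving out 1 library gave -0.82 to 0.42 for Ccr9, -0.02 to 0.26 for Batf3, -0.03 to 0.04 for Wdfy4 and -0.16 to 0.20 for Zbtb46. Replicate numbers follow listing order and pair nothing. With the title number and letter as a block, averaged antibody estimates ran from 0.10 (Wdfy4) to 1.61 (Clec9a), with no sign changed and no call changed. Libraries with the letter A or B do not inform these block estimates, because letter and antibody coincide there. The pair that stands apart therefore weighs more in them, so the unchanged signs are not a check on the part of the pair. With 7 to 28 counts of Ccr9 in 10 libraries, small differences in that gene were not detectable at this depth.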
